A study of Homo sapiens with 6 samples.

Results

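Cardiolipin synthesis and remodelling is represented here by 8 genes of the 25365 rows in the deposited table: PTPMT1, TAZ, CRLS1, PGS1, TAMM41, LCLAT1, PRELID1 and STOML2. Members were found by their symbol. The set was chosen by measured values of the same comparison, a large rise of PTPMT1 and a large fall of tafazzin, so the changes of these 8 genes are given as descriptions and support nothing further. The row TAZ is tafazzin, under its older symbol. Another gene nicknamed TAZ, the Hippo pathway coactivator WWTR1, has a row of its own and moved the other way, from 7.91 ± 0.247 to 21.4 ± 1.24 FPKM (mean ± SD, n = 3 per group).

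MDA-MB-231, a human cell line derived from a triple-negative breast tumour, was harvested 48 h after transfection with 20 nM siRNA. The si-Control group (3 libraries) received the Ambion negative control siRNA AM4611, and the si-NRDE2-2 group (3 libraries) received 1 Ambion siRNA against NRDE2, a nuclear RNA surveillance protein. Both groups were transfected with Lipofectamine RNAiMAX, and stranded mRNA libraries were prepared from 500 ng of total RNA. With a single siRNA per group, effects of the siRNA itself and of NRDE2 loss cannot be told apart, and the labels do not state if the 3 replicates of a group were grown separately. The p-values therefore measure the spread among these libraries, which may be technical. In bulk RNA, a lower level per cell and fewer cells with the transcript cannot be told apart.

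Estimated depth was 41500000 to 57100000 fragments per library. NRDE2 mRNA was 3.80 to 4.45 FPKM in the si-Control and 0.229 to 0.234 FPKM in the si-NRDE2-2 libraries, so each library matched its label. Of the markers expected in this line, VIM, CD44, EGFR, CAV1, MSN and AXL were at 31.8 FPKM or more in every library (EGFR was the lowest). The hormone receptor genes ESR1 and PGR reached at most 0.00356 and 0.00441 FPKM, and FOXA1 at most 0.0455 FPKM. The other luminal markers were expressed, with GATA3 at 1.96 to 2.36, EPCAM at 7.43 to 8.45 and ERBB2 at 10.3 to 12.9 FPKM.

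Cardiolipin is the signature phospholipid of the mitochondrial inner membrane, where it holds respiratory chain complexes and carriers in place. It is built inside mitochondria from phosphatidic acid through CDP-diacylglycerol, phosphatidylglycerol phosphate and phosphatidylglycerol. Its acyl chains are then exchanged by remodelling enzymes, and loss of the remodelling enzyme tafazzin causes Barth syndrome, a disease of heart and skeletal muscle.

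Between the groups, the steps of the pathway moved unequally, which the choice of the set by PTPMT1 and tafazzin fixed in advance. PTPMT1, the phosphatase that makes phosphatidylglycerol, was 3.41-fold higher with si-NRDE2-2, and tafazzin fell to 0.459 times its control level. CRLS1, which joins phosphatidylglycerol and CDP-diacylglycerol into cardiolipin, had equal means within the spread of the libraries. Of the 8 genes, 2 rose (PTPMT1 and PRELID1), 3 fell (TAZ, TAMM41 and LCLAT1) and 3 did not pass an adjusted p under 0.05 (CRLS1, PGS1 and STOML2) in limma. Without si-NRDE2-2 replicate 2, 3 genes passed instead of 5. Over all 11789 tested genes, 44.0% passed, 20.9% higher and 23.0% lower. Ranges without overlap were seen for 6 of the 8 genes and for 53.5% of all tested genes. As the comparison chose the set, these counts are not read further. Log2 fold changes are si-NRDE2-2 over si-Control on the log2(FPKM + 0.1) scale, with their standard error (SE).

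**Figure D1:**
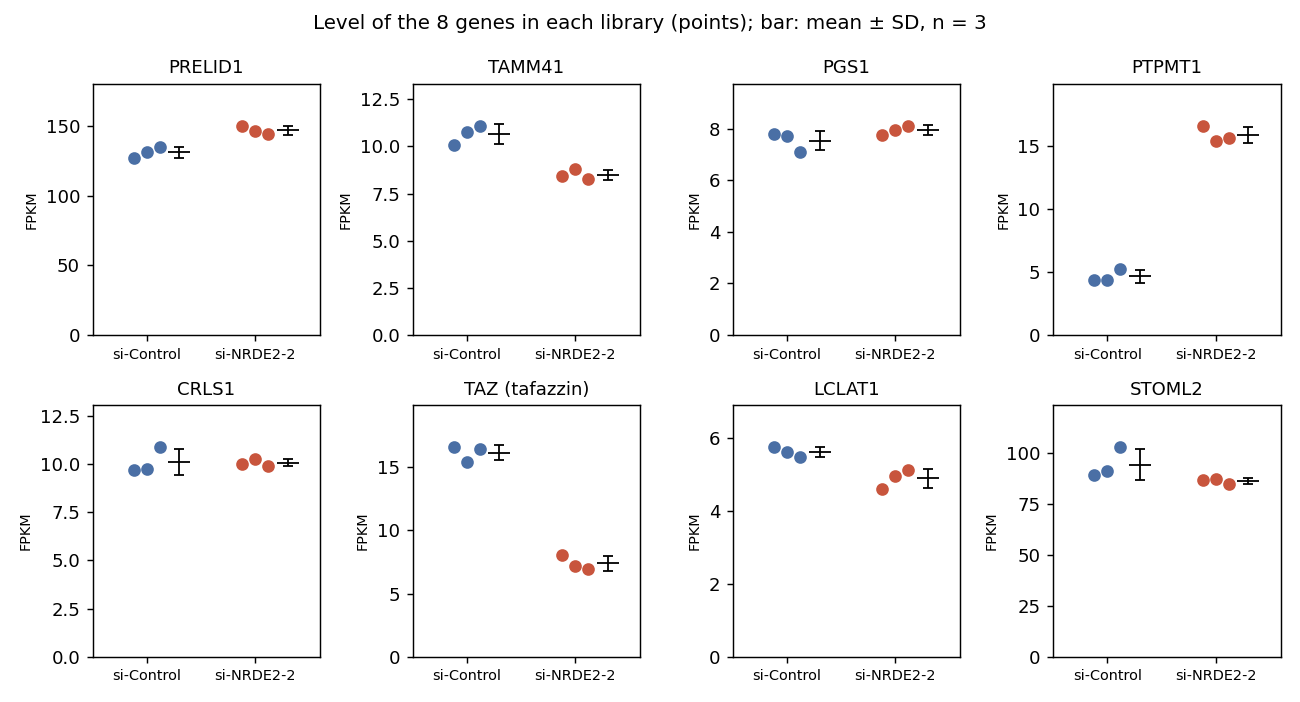
FPKM of each gene in the 3 si-Control and 3 si-NRDE2-2 libraries (points), with the mean ± SD beside them and each axis starting at 0. PTPMT1 and tafazzin separate widely between the groups, while the points of CRLS1 and PGS1 overlap.

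The first steps supply and activate phosphatidic acid. PRELID1 carries phosphatidic acid across the intermembrane space to the inner membrane. Its values were 127, 131 and 134 FPKM for control replicates 1, 2 and 3, and 150.1, 146 and 144 FPKM for si-NRDE2-2 replicates 1, 2 and 3. All 3 si-NRDE2-2 libraries lay above the highest control, by a small margin. The mean was 12.1% higher (log2 fold change 0.17 ± 0.04), and without si-NRDE2-2 replicate 2 the change was 0.17 and no longer passed the threshold. TRIAP1, the small protein that pairs with PRELID1 in the transfer complex, was at 31.7 ± 2.18 and 32.0 ± 0.729 FPKM (n = 3 per group; limma, adjusted p = 0.832).

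TAMM41 is the mitochondrial CDP-diacylglycerol synthase, which turns phosphatidic acid into the activated precursor. Its level was 10.1, 10.8 and 11.1 FPKM in the controls and 8.43, 8.78 and 8.25 FPKM with si-NRDE2-2. Every si-NRDE2-2 library was below every control. The mean fell by 20.3% (log2 fold change -0.32 ± 0.05), and with single libraries left out the log2 fold change ran from -0.36 to -0.29.

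PGS1 makes phosphatidylglycerol phosphate, the committed intermediate. It was listed at 7.77, 7.71 and 7.10 FPKM in the controls and 7.74, 7.96 and 8.12 FPKM with si-NRDE2-2. The ranges overlap, with control replicate 3 the lowest of the 6 libraries. The log2 fold change was 0.08 ± 0.06.

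PTPMT1 removes the phosphate from that intermediate. Control replicates 1, 2 and 3 had 4.35, 4.38 and 5.24 FPKM, against 16.6, 15.4 and 15.7 FPKM for si-NRDE2-2 replicates 1, 2 and 3. The lowest si-NRDE2-2 library was far above the highest control, and the spread within each group was small beside the gap. The mean went from 4.66 ± 0.505 to 15.9 ± 0.647 FPKM (log2 fold change 1.75 ± 0.07), the fifth highest rise among the 11789 tested genes. With single libraries left out the log2 fold change stayed between 1.71 and 1.84. PTPMT1 also has the smallest estimated number of fragments behind it, about 183 in its lowest library for a transcript of 768 bases.

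CRLS1, cardiolipin synthase, catalyses the last step of synthesis. It was at 9.67, 9.75 and 10.9 FPKM in the controls and 10.0, 10.3 and 9.92 FPKM with si-NRDE2-2. The si-NRDE2-2 values lie inside the control range. The log2 fold change was -0.002 ± 0.06, and its sign turned with quantile normalization (0.0019) and when control replicate 3 (0.05), si-NRDE2-2 replicate 1 (0.0017) or si-NRDE2-2 replicate 3 (0.0087) was left out.

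Tafazzin moves acyl chains onto monolyso-cardiolipin to give the mature lipid. Control replicates 1, 2 and 3 had 16.6, 15.4 and 16.4 FPKM, and si-NRDE2-2 replicates 1, 2 and 3 had 8.09, 7.18 and 6.95 FPKM. No si-NRDE2-2 library came near the lowest control. The mean went from 16.1 ± 0.621 to 7.41 ± 0.601 FPKM, a decrease of 54.1% (log2 fold change -1.12 ± 0.06) and the ninth lowest value among the tested genes. With single libraries left out the log2 fold change ran from -1.18 to -1.07. Tafazzin has several splice forms, and a value per gene does not separate them.

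LCLAT1, an acyltransferase of the endoplasmic reticulum that has been linked to another route of cardiolipin remodelling, was at 5.74, 5.62 and 5.49 FPKM in the controls and 4.61, 4.96 and 5.11 FPKM with si-NRDE2-2. The groups do not overlap, but si-NRDE2-2 replicate 3 lies close to the lowest control. The mean fell by 12.9% (log2 fold change -0.20 ± 0.06). This change missed the threshold without si-Control replicate 1 (-0.18), si-Control replicate 2 (-0.20) or si-NRDE2-2 replicate 2 (-0.21), and with libraries scaled to the same total (-0.20).

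STOML2, a stomatin-like scaffold that binds cardiolipin and prohibitins in the inner membrane, was at 88.8, 91.0 and 103 FPKM in the controls and 86.4, 87.2 and 84.5 FPKM with si-NRDE2-2. Its groups do not overlap, and control replicate 3 stands above the other controls. The log2 fold change was -0.13 ± 0.06. It passed the threshold with libraries scaled to the same total (-0.13), with quantile normalization (-0.16) and without control replicate 1 (-0.17).

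Since FPKM is scaled by transcript length, the levels of the 8 genes can be set in order. In the controls the order from the highest mean was PRELID1 (131 FPKM), STOML2 (94.2), TAZ (16.1), TAMM41 (10.6), CRLS1 (10.1), PGS1 (7.53), LCLAT1 (5.62) and PTPMT1 (4.66). Only TAMM41 and CRLS1 overlapped among neighbours in this order. With si-NRDE2-2 the order was PRELID1 (147 FPKM), STOML2 (86.0), PTPMT1 (15.9), CRLS1 (10.1), TAMM41 (8.49), PGS1 (7.94), TAZ (7.41) and LCLAT1 (4.89). There, PGS1 and TAZ were the only neighbours whose libraries overlapped. PTPMT1 thus went from the lowest of the 8 levels to the third, and tafazzin from the third to the seventh. Within a library, the FPKM ratio of PTPMT1 to TAZ was 0.263, 0.284 and 0.319 in the controls and 2.06, 2.15 and 2.26 with si-NRDE2-2. The ratio of PTPMT1 to PGS1, the enzyme just before it, went from between 0.560 and 0.738 to between 1.93 and 2.15.

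**Figure D2:**
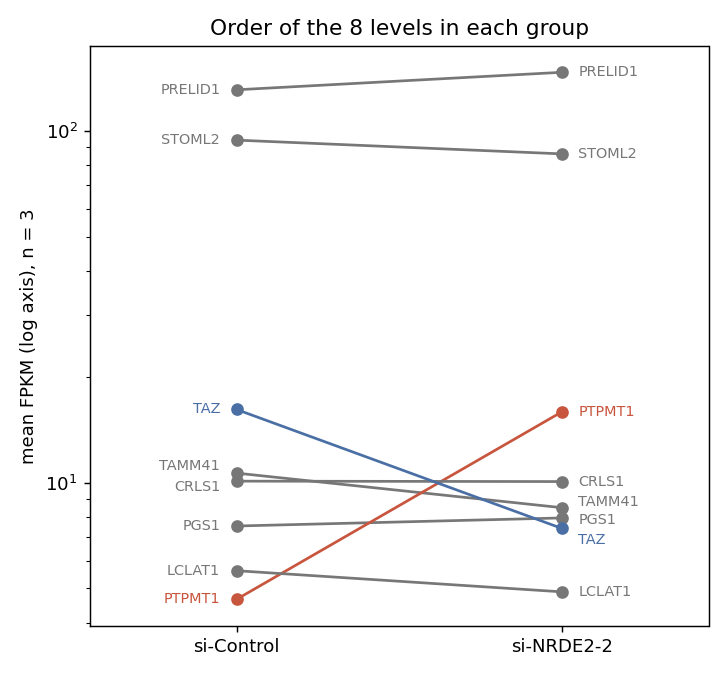
Mean FPKM of each gene in the si-Control and si-NRDE2-2 groups (n = 3 each) on a log axis, with a line joining the means of a gene. PTPMT1 (red) climbs from 4.66 to 15.9 FPKM and crosses tafazzin (blue), which drops from 16.1 to 7.41 FPKM.

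Beside the spread of all tested genes, PTPMT1 and tafazzin stand outside the range from the 5th to the 95th percentile of log2 fold changes (-0.41 to 0.47). The other 6 genes lie inside it. The median over the 8 genes was -0.065, and that over all tested genes was -0.02.

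**Figure D3:**
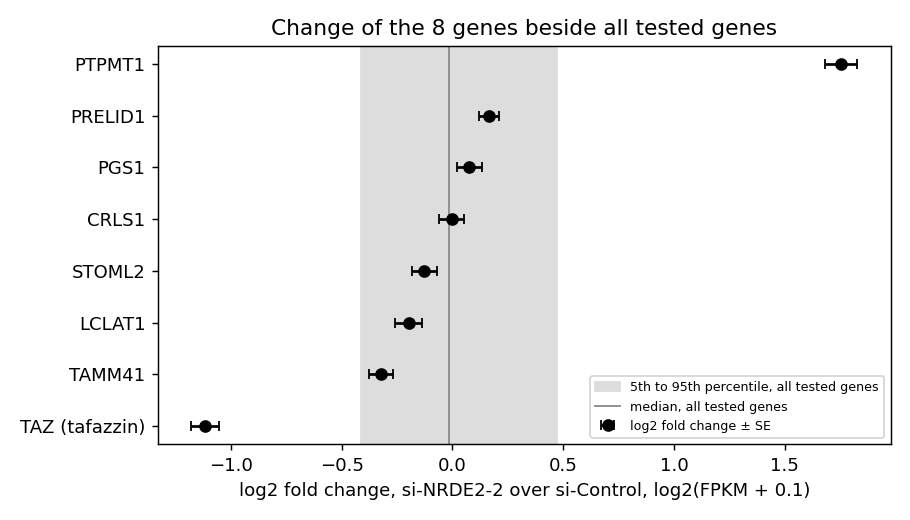
Log2 fold change ± SE of the 8 genes, si-NRDE2-2 over si-Control, with the 5th to 95th percentile (grey band) and the median (line) of 11789 tested genes. PTPMT1 at 1.75 and tafazzin at -1.12 lie outside the band and the other 6 genes inside it.

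Genes whose annotated spans overlap a member could share its reads. For genes on the opposite strand this holds only where counting ignores strand, and the strand setting behind this table is unknown. PTPMT1 overlaps NDUFS3 on its own strand and CELF1 and KBTBD4 on the opposite one, per GENCODE release 29. NDUFS3, a complex I subunit, was at 51.8 ± 4.29 and 50.7 ± 0.886 FPKM (n = 3 per group; limma, adjusted p = 0.709). CELF1, an RNA-binding protein, was at 31.6 ± 1.65 and 30.9 ± 0.607 FPKM (limma, adjusted p = 0.644). KBTBD4, a substrate adaptor of a ubiquitin ligase, was at 5.87, 6.48 and 6.31 FPKM in the controls and 6.65, 7.48 and 6.71 FPKM with si-NRDE2-2. Its groups do not overlap, yet the log2 fold change of 0.16 ± 0.06 did not pass (limma, adjusted p = 0.0733). The log2 fold change was -0.03 for NDUFS3 and -0.03 for CELF1, beside 1.75 for PTPMT1. Whether PTPMT1 shares reads with any of these 3 genes was not tested.

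Tafazzin overlaps DNASE1L1, a DNase-like gene on the opposite strand. DNASE1L1 was at 11.6 ± 0.598 and 11.6 ± 0.861 FPKM in the groups (n = 3 each; limma, adjusted p = 0.984). Whether it shares reads with tafazzin was not tested. PRELID1 overlaps MXD3, a MAX-binding repressor, at 10.3 ± 0.181 and 10.8 ± 0.589 FPKM (limma, adjusted p = 0.374). PGS1 overlaps the dynein gene DNAH17, which reached at most 0.0129 FPKM in any library. CRLS1, TAMM41, LCLAT1 and STOML2 overlap no other annotated gene of the table.

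**Figure D4:**
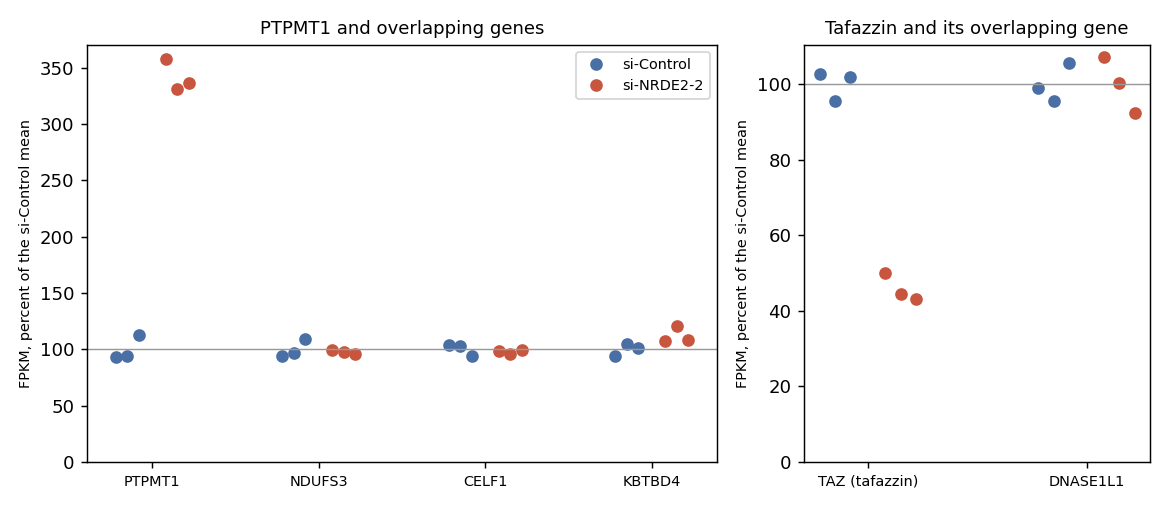
FPKM in each library as a percentage of the gene's own si-Control mean, for PTPMT1 and the 3 genes that overlap it (left) and for tafazzin and DNASE1L1 (right), with axes from 0. The si-NRDE2-2 points (red) of PTPMT1 and tafazzin leave the line at the control mean, while those of DNASE1L1 lie on both sides of it and those of NDUFS3 and CELF1 lie just below it, within the range of their controls.

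Short words in the 3′ UTR are shown next because PTPMT1 holds one that was frequent among the genes with the largest rise in an earlier scan of these fold changes. That word is GACGTA, and 2 more words from the same scan, GACAGTA and, as the last of the set, GACTGTA, were searched with it. Each was looked for on the transcript strand only, in the 3′ UTR of 1 GENCODE release 29 transcript per gene, and none of the 3 contains another. They were picked from the same comparison, so a match here is a description and no independent evidence. Of the 8 genes, 5 hold a word once, printed 5′ to 3′ with the word in capitals, and TAZ, TAMM41 and STOML2 hold none of the 3.
PTPMT1: agcccagacttGACGTAacagaaatgtg
CRLS1: gacttaaccttGACAGTAagcttaaagca
LCLAT1: taagaattagaGACAGTAactccaaaaat
PGS1: gcccctgcaggGACAGTAtggctgagggt
PRELID1: ggtaagtgctaGACTGTAagcccgacaag

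In GRCh38, on the plus strand in each case, the capitals lie at chr11:47571720-47571725 (PTPMT1), chr20:6039076-6039082 (CRLS1), chr2:30642851-30642857 (LCLAT1), chr17:78424161-78424167 (PGS1) and chr5:177306851-177306857 (PRELID1). These positions are from the annotation, whereas the deposited values were made on hg19. The log2 fold change was 1.75 for PTPMT1, the only one of the 5 with GACGTA, and ran from -0.20 to 0.17 for the other 4.

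GACGTA was present in the 3′ UTR of 422 of 10627 tested genes searched (3.97%). Their median log2 fold change was 0.205, against -0.02 for genes without it. Of 68 searched genes at least 2-fold higher, 25 (36.8%) held GACGTA, PTPMT1 among them, and of 11 at least 2-fold lower 0 did. The word was picked from these same fold changes, so a larger share among genes that rose was favoured in advance. The 3′ UTR lengths of the 68 genes were not matched. The other 397 genes with the word were not 2-fold higher. The 3′ UTR of PTPMT1 is short, at 140 bases, with the word starting at base 91. Among 390 genes with a 3′ UTR within 20% of that length, PTPMT1 included, 3 (0.77%) held the same word, and PTPMT1 is 1 of these 3. The share of searched genes was 7.81% for GACAGTA, with a median log2 fold change of 0.10 among its carriers. It was 9.15% for GACTGTA, with a median of 0.07. Of the 68 genes at least 2-fold higher, 23.5% held GACAGTA and 19.1% held GACTGTA. Each of these 2 words was held by 1 of the 11 genes at least 2-fold lower. Whether these words have a part in the rise of PTPMT1 was not tested.

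The wider pathway was described with 4 lists, each read from the fit over all genes, for which 44.0% is the background of changed genes. By direction, the background is 20.9% higher and 23.0% lower. The lists were chosen with earlier results of these data known, so their counts are descriptions. Precursor supply covers enzymes and carriers of phosphatidic acid and CDP-diacylglycerol. Of its 22 genes 19 were tested, and 2 rose, 5 fell and 12 did not pass (median log2 fold change -0.02). Those that fell included the diacylglycerol kinases DGKA (-0.45 ± 0.06, adjusted p = 0.00025 in limma) and DGKZ (-0.31 ± 0.04, adjusted p = 0.0002), which make phosphatidic acid. The phosphatidic acid phosphatase LPIN1 fell by 0.34 ± 0.06 (adjusted p = 0.00112), and PRELID2, a relative of PRELID1, fell by 0.38 ± 0.07 (adjusted p = 0.00155). AGPAT2, an acyltransferase that makes phosphatidic acid, rose from 35.7 ± 2.77 to 41.4 ± 0.921 FPKM (0.22 ± 0.06, adjusted p = 0.00837). SLMO2, now PRELID3B and also a relative of PRELID1, rose by 0.26 ± 0.07 (adjusted p = 0.0111; 0.0513 without si-Control replicate 2, in a range of 0.0024 to 0.0513 over the alternatives). The microsomal CDP-diacylglycerol synthase CDS1 was kept out of the test by the filter on low values, at 0.527, 0.57 and 0.591 FPKM in the controls and 0.956, 1.12 and 1.34 FPKM with si-NRDE2-2. Its groups do not overlap, and without the filter it passed (0.89 ± 0.12, limma, adjusted p = 0.0012), so that 3 genes of the list rose instead of 2. Its relative CDS2 was at 8.49 ± 0.26 and 8.84 ± 0.247 FPKM (adjusted p = 0.386). AGPAT1 is listed at 0 in all 6 libraries, and whether it is unexpressed or its reads were not counted was not tested. CDS1, CDS2 and AGPAT1 were named after their values were seen.

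Turnover, transfer and acyl exchange covers lipases, transfer proteins and acyltransferases of cardiolipin or of acyl chains, and related lipid enzymes such as the peroxidase GPX4. The list is broad, and not every gene in it is specific to cardiolipin. Of 13 genes, all tested, 0 rose, 7 fell and 6 did not pass, with a median of -0.205 beside -0.02 over all tested genes. Without si-NRDE2-2 replicate 1, 1 gene rose: the acyltransferase LPGAT1, named after its values were seen, was at 0.13 ± 0.06 (adjusted p = 0.0939, and from 0.0224 without that library to 0.2695 over the alternatives). LPCAT3, a lysophospholipid acyltransferase that inserts polyunsaturated chains, was at 16.2, 16.8 and 15.9 FPKM in the controls and 9.64, 9.51 and 8.64 FPKM with si-NRDE2-2. No library of either group came near the other, and the fall was 0.81 ± 0.05 on the log2 scale (limma, adjusted p = 1.1e-06). PLD6, a mitochondrial surface phospholipase that can hydrolyse cardiolipin, fell by 0.48 ± 0.07 (adjusted p = 0.00017). NME4, a kinase that moves cardiolipin between mitochondrial membranes, fell by 0.37 ± 0.05 (adjusted p = 9.9e-05). GPX4, the peroxidase that reduces lipid peroxides, fell by 0.35 ± 0.07 (adjusted p = 0.0017). Named after their values were seen, HADHA, part of which is also known as a monolysocardiolipin acyltransferase, fell by 0.20 ± 0.04 (adjusted p = 0.0028), whereas HADHB, the other subunit of the trifunctional protein, was at -0.02 ± 0.05 (adjusted p = 0.831). The lipases PLA2G6 and PNPLA8 were at 0.02 ± 0.10 and -0.02 ± 0.05 (adjusted p = 0.909 and 0.741), also named after their values were seen.

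Other phospholipid synthesis covers enzymes of phosphatidylethanolamine, phosphatidylcholine, phosphatidylserine and phosphatidylinositol. Of 15 genes 14 were tested, and 2 rose, 4 fell and 8 did not pass (median -0.06). PCYT2, the rate-limiting enzyme of the ethanolamine branch, was at 22.8, 24.1 and 25.9 FPKM in the controls and 17.1, 16.3 and 15.7 FPKM with si-NRDE2-2. The groups were well apart (-0.56 ± 0.06; limma, adjusted p = 1.6e-05). CHPT1, which completes phosphatidylcholine, fell by 0.22 ± 0.04 (adjusted p = 0.00206). PEMT (-0.22 ± 0.06, adjusted p = 0.0161), ETNK1 (-0.23 ± 0.06, adjusted p = 0.0141), CHKB (0.28 ± 0.08, adjusted p = 0.0139) and EPT1 (0.21 ± 0.07, adjusted p = 0.0324) each lost the call when some single libraries were left out. These were si-NRDE2-2 replicate 3 for PEMT, si-Control replicates 1 and 2 and si-NRDE2-2 replicate 3 for ETNK1, and si-Control replicate 2 and si-NRDE2-2 replicate 1 for CHKB. For EPT1 they were replicates 2 and 3 of both groups, and its call was also lost without the filter, at equal totals and with a replicate block. Without si-Control replicate 2, or without si-NRDE2-2 replicate 3, 3 genes passed instead of 6. PISD, the inner membrane enzyme that makes phosphatidylethanolamine from phosphatidylserine, was at -0.13 ± 0.05 (adjusted p = 0.0794, and 0.0452 without si-NRDE2-2 replicate 1, the lowest over the alternatives; named after its value was seen). PCYT1B, also named after its values were seen, is listed at 0 in all 6 libraries, with the same limit as for AGPAT1.

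The list of inner membrane scaffolds, MICOS subunits and proteases holds 21 genes, all tested, of which 1 rose, 3 fell and 17 did not pass (median -0.02). The MICOS complex shapes the cristae. Its subunit gene APOOL, a cardiolipin-binding protein, was at 3.27, 3.34 and 3.08 FPKM in the controls and 4.26, 4.51 and 4.74 FPKM with si-NRDE2-2. All si-NRDE2-2 values exceed the controls (0.47 ± 0.07; limma, adjusted p = 0.00025). The protease gene AFG3L2 fell by 0.26 ± 0.04 (adjusted p = 0.00067). MTX2 (-0.15 ± 0.05, adjusted p = 0.0247) and the protease OMA1 (-0.16 ± 0.06, adjusted p = 0.0394) were the others that fell. MTX2 lost its call without si-NRDE2-2 replicate 2 or 3, and with a prior that was neither trended nor robust. OMA1 lost its call when any 1 of the 6 libraries was left out (adjusted p from 0.0589 to 0.109, and from 0.0351 to 0.109 over all alternatives), and also without the filter, at equal totals and with a replicate block. Without si-NRDE2-2 replicate 2 or 3, 2 genes of this list passed instead of 4. Scaling to the same total, or quantile normalization, gave 5 that fell. DNAJC19, whose loss causes a cardiomyopathy that resembles Barth syndrome, was at 16.8 ± 0.93 and 16.7 ± 1.06 FPKM (adjusted p = 0.944).

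**Figure D5:**
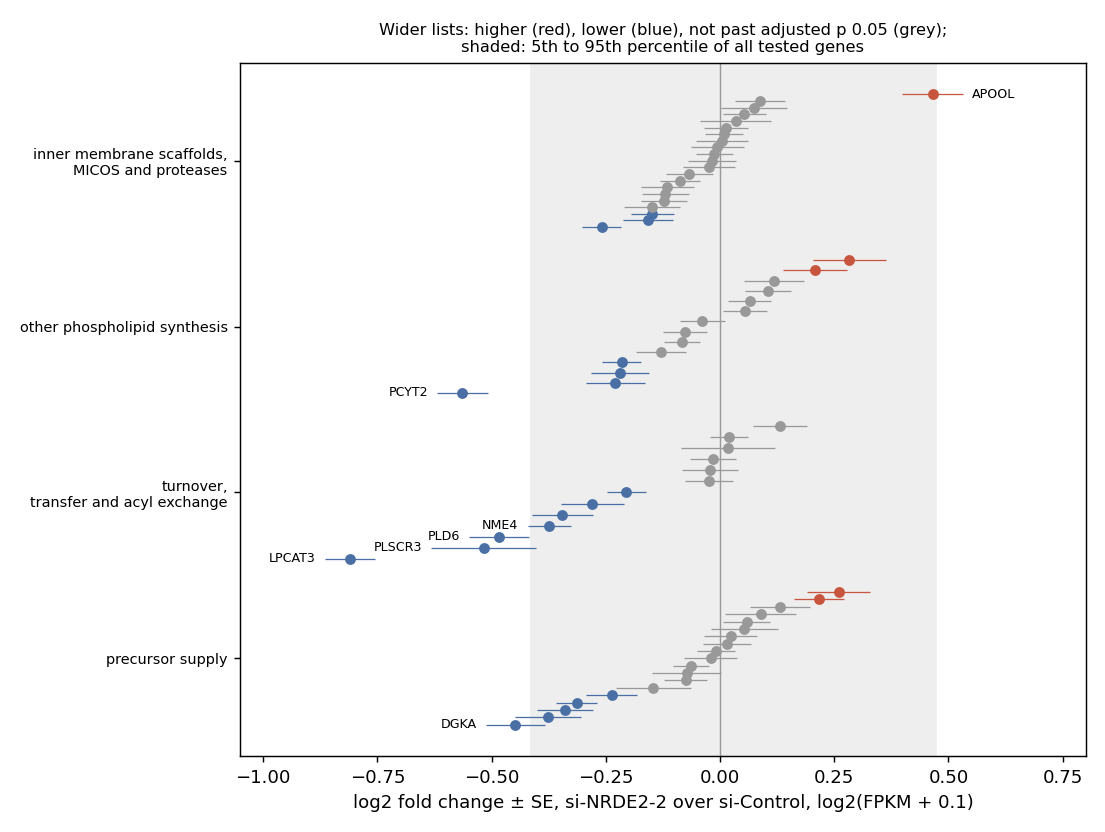
Log2 fold change ± SE of every tested gene in the 4 wider lists, with genes that rose in red, genes that fell in blue, genes that did not pass in grey, and the 5th to 95th percentile of all tested genes shaded. In the turnover list 7 of 13 points are blue and 0 are red, with LPCAT3 the farthest to the left at -0.81. Over all tested genes 23.0% were lower and 20.9% higher.

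Genes with a pattern most like that of a member were found by the Euclidean distance of centred log2(FPKM + 0.1) values over the 6 libraries, among 8473 genes with a mean of at least 5 FPKM. Pseudogenes and genes with clone-based or date-converted names, or names starting with LOC or LINC, were passed over among these. For PTPMT1 the nearest of the rest were BANF1 (distance 0.222), SERPINA3 (0.348) and MET (0.356). BANF1 went from 46.8 ± 2.68 to 144 ± 2.32 FPKM. For tafazzin the nearest were MCAM (0.128), SYTL1 (0.143) and MOV10 (0.152). MCAM went from 28.0 ± 0.305 to 13.3 ± 0.664 FPKM. With 2 groups of 3 libraries, the distance mostly reflects a similar size of change.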

How the data were processed

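The deposited table holds FPKM, which the authors computed per gene and library (fragments per kilobase of transcript, scaled to library depth). STAR 2.5.1b and DESeq2 1.10.1 are named per the submitters' processing notes, with hg19 as the build and no role for either tool. The deposited table is labelled Cuff Gene Counts, but its values are not whole numbers. The FPKM program, its annotation and strand setting are not stated in the sources used here. Columns were matched to samples by the labels, and 4 further columns were not used. Of 25365 rows, 5825 were at 0 throughout.

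Depth was estimated from low values, as single fragments give each gene a constant step in FPKM. Whole multiples, within a tolerance of 0.02, were found for 60.8% of 2946 genes averaging 0.05 FPKM or less. The absolute scale rests on 659 genes (quartiles 48600000 and 57700000 fragments for si-Control replicate 1).

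The test covered 11789 genes that reached 1 FPKM in 3 or more libraries, without 159 small RNA rows, and all 8 members passed this filter. The fit used limma 3.58.1 (R 4.3.3) on log2(FPKM + 0.1), with a trended, robust prior, no term beside group, and p-values adjusted by Benjamini-Hochberg over all tested genes. The script was tested on simulated data.

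The members and lists were chosen with earlier results of these data known. Named were the members, NRDE2, WWTR1, TRIAP1, DNAJC19, overlapping genes, up to 4 genes per list and direction by adjusted p, and the 3 nearest genes to PTPMT1 and to TAZ. Other genes are marked in the text as named after their values were seen. Alternatives changed the pseudocount, filter, scaling, variance prior, replicate block and libraries.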

Additional observations from a re-analysis of the deposited data

How the results depend on the processing

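The log2 fold changes of the 8 members kept their direction under every alternative, except CRLS1, whose value near 0 changed sign. PTPMT1 ran from 1.58 (pseudocount 1) to 1.84 and TAZ from -1.18 to -1.03 (pseudocount 1). When single replicates were left out, 3 to 5 members passed (6 with quantile normalization), the 3 being PTPMT1, TAZ and TAMM41 without si-NRDE2-2 replicate 2. Under the same alternatives 3 to 6 genes of other phospholipid synthesis and 2 to 6 of the inner membrane list passed, and 3929 to 5494 of all tested genes. Deviations of libraries sharing a replicate number had correlations of -0.123, 0.105 and -0.121 for numbers 1, 2 and 3. Between libraries with different numbers the correlations ran from -0.113 to 0.17. These values cannot show if the replicates were run in pairs. With the replicate block 4686 genes passed in place of 5185, and 5 members passed, as without it. FPKM keeps no count, so the fragments behind a low level can only be estimated, from the depth. The standard errors and p-values come from the spread among libraries and do not use that estimate.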

Other observations

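The 2 other genes with GACGTA in a 3′ UTR about as short as that of PTPMT1 were looked up after the word had been searched. KISS1, which encodes the precursor of the kisspeptin peptides, was at 11.1, 12.4 and 13.7 FPKM in the controls and at 25.8, 23.2 and 21.9 FPKM with si-NRDE2-2 (log2 fold change 0.93 ± 0.08). WDR83, a WD repeat scaffold gene, was at 5.26, 5.57 and 5.22 FPKM in the controls and at 9.66, 9.33 and 9.81 FPKM with si-NRDE2-2 (0.83 ± 0.05). In both genes every si-NRDE2-2 library lies above every control, and groups without overlap were seen for 53.5% of all tested genes. The word was picked from these same fold changes, so a rise of its carriers was favoured in advance and is no independent evidence. Whether the word has a part in these values was not tested.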
